A study of Mus musculus with 30 samples.

Results

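The 5 genes described here encode the surface molecules by which blood precursors made from mouse embryonic stem cells (ESC) were sorted, namely Kdr (Flk1), Kit (KIT), Tek (Tie2) and Itga2b (CD41), together with Cd34 (CD34), which was not used for sorting. They were chosen by gene symbol and are 5 of the 14685 genes in the deposited expression table, and all 5 passed the filter of more than 1 FPKM in at least 1 sample. FPKM is the number of sequenced fragments per kilobase of transcript scaled to the number of mapped fragments, so levels of different genes can be compared per length.

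Total RNA-seq was performed in 2 samples of each of 15 groups, 5 populations in 3 genotypes of the mouse ESC line E14. The genotypes were WT, Sp1 ΔDBD/ΔDBD (Sp1_deltaDBD in the labels, in which Sp1 lacks its DNA-binding domain) and Sp3-/- (Sp3KO, a complete knockout of Sp3), and each was 1 cell line, so genotype and line cannot be told apart. ESC were undifferentiated and had been maintained on fibroblast feeder cells. Before differentiation they were grown for 2 passages without feeder cells. Flk1+ cells were purified on magnetic columns from embryoid bodies, whose time in culture depended on the cell line, and were then seeded in blast culture. After 2 days the blast cultures were sorted into the first hemogenic endothelium population HE1 (KIT+, CD41-, Tie2+), the second, HE2 (KIT+, CD41+, Tie2+), and progenitors (KIT+, CD41+, Tie2-). The comparisons ask how the receptor genes change along this path and whether loss of Sp1 DNA binding or of Sp3 alters them.

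Kdr encodes a receptor for vascular endothelial growth factor that marks the mesoderm from which blood and vessels arise. Tek encodes the angiopoietin receptor of endothelial cells, Kit the receptor for stem cell factor, and Itga2b the alphaIIb integrin chain, which appears at the start of blood formation and later forms the platelet fibrinogen receptor with the beta3 chain. CD34 is a sialomucin of endothelial cells and blood progenitors. In hemogenic endothelium these molecules overlap, because an endothelial cell gives rise to a blood cell. That cell loses its endothelial receptors, keeps KIT and gains CD41. Sp1 and Sp3 bind the same GC-rich motif, the GC box.

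In the GRCm38 annotation Kit lies at chr5:75574916-75656722 on the forward strand and Kdr at chr5:75932827-75978458 on the reverse strand. They are 276104 bases apart with 0 protein-coding genes between them, and the receptor gene Pdgfra lies 376700 bases before Kit. Tek lies at chr4:94739289-94874976 and Cd34 at chr1:194938819-194961279, both on the forward strand, and Itga2b at chr11:102453297-102470122 on the reverse strand. The 250 bases before the annotated start of Kdr, Tek and Cd34 are given from RefSeq (GRCm38.p6), Tek and Cd34 because they differed together in mutant Flk1+ cells and Kdr as the gene of that gate, which did not pass the test there. Each is written 5′ to 3′ on the strand of the gene, with the GC box (GGGCGG or its reverse complement) in capitals.
Kdr, chr5:75978456-75978705, reverse strand: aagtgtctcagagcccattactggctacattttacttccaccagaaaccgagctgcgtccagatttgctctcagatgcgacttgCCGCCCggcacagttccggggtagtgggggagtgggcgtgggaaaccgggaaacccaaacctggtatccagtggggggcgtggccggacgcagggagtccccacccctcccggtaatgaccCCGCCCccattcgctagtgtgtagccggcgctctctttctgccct
Tek, chr4:94739039-94739288, forward strand: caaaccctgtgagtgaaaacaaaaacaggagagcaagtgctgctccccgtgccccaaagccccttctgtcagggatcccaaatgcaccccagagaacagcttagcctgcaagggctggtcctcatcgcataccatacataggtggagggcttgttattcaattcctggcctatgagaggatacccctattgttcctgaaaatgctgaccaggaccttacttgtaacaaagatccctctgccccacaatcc
Cd34, chr1:194938571-194938820, forward strand: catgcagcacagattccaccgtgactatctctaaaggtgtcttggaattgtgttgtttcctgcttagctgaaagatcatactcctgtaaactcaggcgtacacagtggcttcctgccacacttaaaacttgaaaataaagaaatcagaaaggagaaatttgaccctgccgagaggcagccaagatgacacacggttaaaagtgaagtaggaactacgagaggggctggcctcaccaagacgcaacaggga
Kdr held 2 matches to the GC box, and Kit held 1 in the same window at each of its 2 listed starts. The letters were not found in the windows of Tek, Itga2b and Cd34. A match was found in 32.7% of all 32851 promoters and in 55.9% of the 14096 promoters of genes in the expression table. The GC content of the window was 61.6% for Kdr, 70.8% for Kit at both starts, 51.2% for Tek, 54.0% for Itga2b and 46.4% for Cd34, against a median of 52.4% over all promoters. The CACCC box (CCACCC on either strand), a GC-rich motif that Sp and Klf factors can also bind, was found once in Kdr and once at each start of Kit and not in Tek, Itga2b or Cd34, and its share was 28.1% over all promoters and 33.7% over those of genes in the table. Also searched on both strands were AGATAA for GATA factors, CGGAAG for ETS factors and TGTGGT for RUNX factors. They had 0 matches in all 5 genes, and were in 9.99%, 13.6% and 14.0% of promoters. These are matches of letters and not sites shown to be bound.

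The gates and the targeted genes were first checked. In Sp3-/- samples Sp3 was between 3.38 and 7.79 FPKM, against 25.9 to 58.1 FPKM in WT, and the log2 differences lay between -3.32 and -2.40. Sp1 RNA remained in Sp1 ΔDBD/ΔDBD samples (14.8 to 40.5 FPKM against 24.9 to 52.4 in WT), in which only the DNA-binding domain is deleted, and it was lower in Flk1+ cells, HE2 and progenitors, with log2 differences of -0.63, -0.56 and -0.76 (adjusted p = 0.0311, 0.0404 and 0.00788). Replicate 1 of the WT and Sp1 ΔDBD/ΔDBD blast cultures stood apart from replicate 2. The summed level of the 5 epithelial markers was 809.7 and 77.7 FPKM in the WT HE1 samples, 242.1 and 16.0 in WT HE2 and 253.1 and 11.6 in Sp1 ΔDBD/ΔDBD HE1, against 80.6 and 31.1 in Sp3-/- HE1. The summed level of the 6 muscle markers was 1697 and 356.8 FPKM in WT HE1. In WT, Kdr, Kit, Itga2b and Cd34 were higher in replicate 2 in 3 of 3 blast culture populations. In Sp1 ΔDBD/ΔDBD this held for Kdr, Kit and Itga2b, whereas Cd34 was higher in replicate 2 in 1 of 3. The part that such cells play in the levels below was not tested.

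Kdr was nearly absent in ESC and high in each sorted population. WT ESC held 0.322 and 0.297 FPKM, Flk1+ cells 192 and 209, HE1 209 and 303, HE2 127 and 174, and progenitors 38.4 and 58.3. The order of the WT means was HE1, Flk1+, HE2, progenitor and ESC, and no replicate ranges of neighbours overlapped. The nearest samples of HE1 and Flk1+ cells were at 209.4 and 209.0 FPKM, however. The difference between these populations did not pass the test (0.33 ± 0.26, adjusted p = 0.306, limma). Kdr remained at a mean of 48.3 FPKM in progenitors, which had been sorted as Tie2- but not for Flk1. Because Flk1 was the gate of Flk1+ cells, the rise from ESC describes that sort.

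Kit followed another course. Its WT levels were 17.6 and 14.8 FPKM in ESC, 4.91 and 5.84 in Flk1+ cells, 16.9 and 26.8 in HE1, 36.9 and 58.5 in HE2, with progenitors at 35.2 and 60.7. The fall between ESC and Flk1+ cells, where KIT was not a gate, was -1.57 ± 0.34 on the log2 scale (SE, adjusted p = 0.000642, limma). HE2 and progenitors had mean levels of 47.7 and 48.0 FPKM with overlapping replicates, and ESC and HE1 overlapped as well. All 3 blast culture populations were gated as KIT+, so their rise over Flk1+ cells describes that sort. The KIT gate did not separate the 3 from each other. Kit was higher in HE2 than in HE1 by 1.12 ± 0.34 (adjusted p = 0.0226, limma).

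Tek was high in HE1 and HE2 and low in the other populations. WT levels were 4.48 and 4.27 FPKM in ESC, 1.22 and 1.29 in Flk1+ cells, 135 and 205 in HE1, 85.1 and 90.2 in HE2, with progenitors at 8.67 and 5.95. The mean was 12.0-fold lower in progenitors (Tie2-) than in HE2 (Tie2+), which the Tie2 gate separated. Tek thus fell from ESC to Flk1+ cells (-1.72 ± 0.30, adjusted p = 8.22e-05) and was higher by 6.94 ± 0.30 in HE1 than in Flk1+ cells.

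Itga2b was at 0.162 and 0.0327 FPKM in WT ESC, 2.25 and 2.46 in Flk1+ cells, 34.8 and 49.2 in HE1, 84.6 and 147 in HE2, with progenitors at 85.9 and 136. HE1 cells were CD41- by the gate, yet Itga2b RNA was 17.8-fold higher there than in Flk1+ cells. HE2 and progenitor replicates overlapped. Itgb3, which encodes the beta3 partner of the alphaIIb chain, was at 4.81 and 1.86 FPKM in WT HE1, 111 and 127 in HE2, with progenitors at 205 and 233. In HE1 Itgb3 was therefore low where Itga2b RNA was already present, a comparison of levels per length.

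Cd34, which was not gated, was low in WT ESC (1.63 and 2.76 FPKM) and lower in Flk1+ cells (0.319 and 0.261). HE1 held 139 and 153 FPKM, HE2 248 and 353, and progenitors 103 and 262. The log2 difference was -2.51 ± 0.46 between ESC and Flk1+ cells (adjusted p = 0.00015) and 8.55 ± 0.46 between Flk1+ cells and HE1 (adjusted p = 5.55e-11). The further difference of HE2 over HE1 (1.02 ± 0.46, adjusted p = 0.128) and that of progenitors over HE2 (-0.85 ± 0.46, adjusted p = 0.275) did not pass the test, and HE2 and progenitor replicates overlapped.

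**Figure D1:**
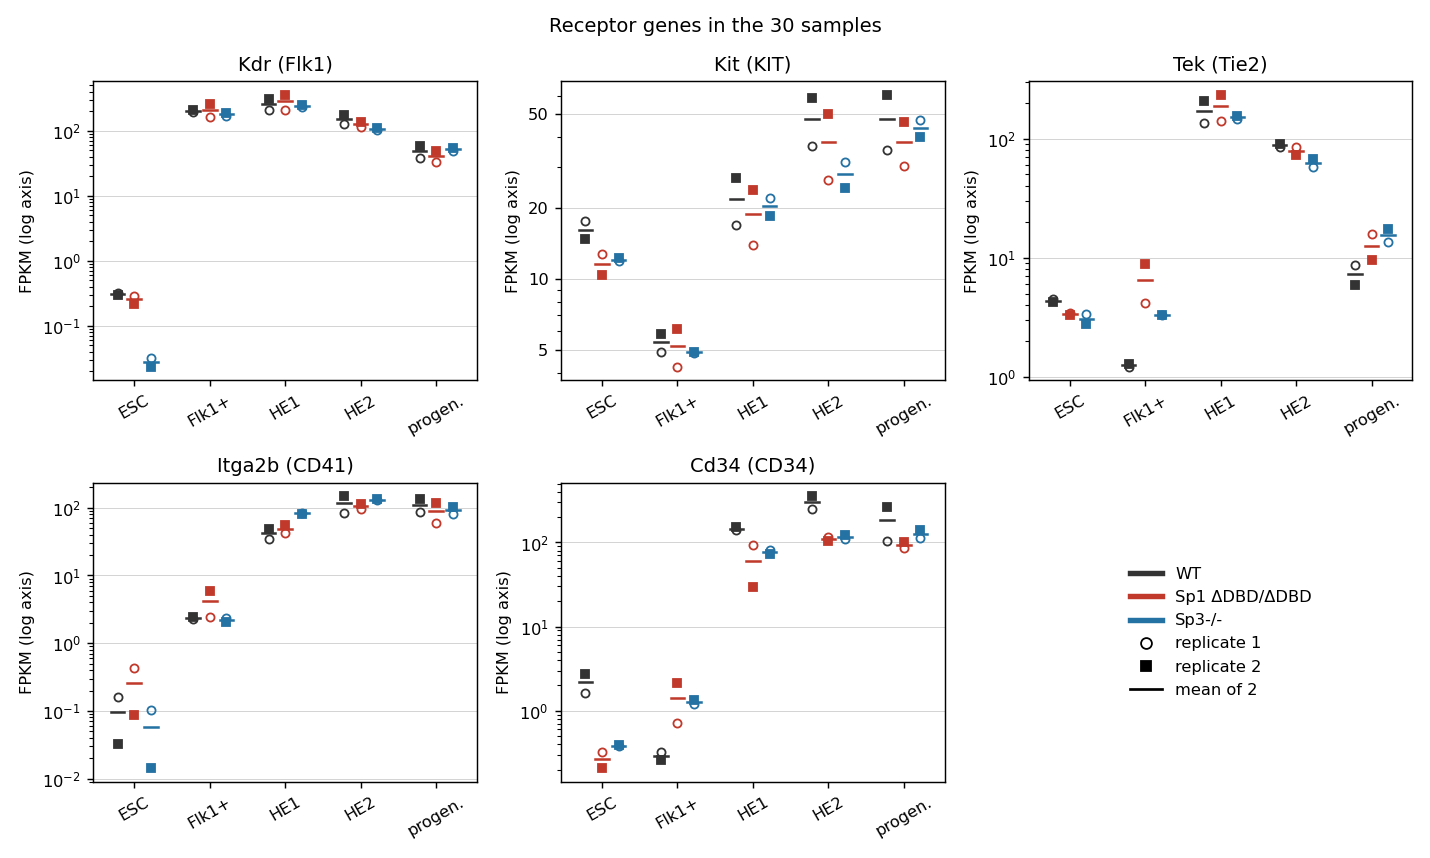
FPKM of the 5 receptor genes in the 30 samples by population, on log axes that differ between panels; colours are genotypes, circles and squares the 2 replicates, and short lines the means. In Flk1+ cells the Kdr and Kit samples of Sp1 ΔDBD/ΔDBD overlap WT, whereas the Tek samples of both mutants (3.31 to 8.94 FPKM) lie above WT (1.22 and 1.29).

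Counted over the 4 WT steps, 5 of the 5 genes passed the test between ESC and Flk1+ cells (2 higher and 3 lower), where 52.2% of all 14525 genes tested did. Between Flk1+ cells and HE1 4 passed, all higher (Kit, Tek, Itga2b and Cd34), at a background of 53%. Between HE1 and HE2 4 passed (Kit and Itga2b higher, Kdr and Tek lower) at a background of 21.9%, and between HE2 and progenitors 2 passed (Kdr and Tek lower) at 13.2%. Kit, Tek and Itga2b were gated in these last populations, where only CD41 separated HE1 from HE2 and only Tie2 separated HE2 from progenitors. The 4 calls between HE1 and HE2 fell to 1 or 2 when any 1 of the 4 samples was left out.

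The mutants were compared with WT in each population, where the gates were the same. The spread of each gene was pooled over all 15 groups. The p-values therefore do not measure the spread of the compared samples alone. In the Sp1 ΔDBD/ΔDBD line 1 of the 5 genes passed in ESC (Cd34, lower), where 6.06% of all genes passed, 2 in Flk1+ cells (Tek and Cd34, higher, background 5.54%), 1 in HE1 (Cd34, lower, 10%), and 0 by limma in HE2 and progenitors (9.67% and 8.78%), with 1 gene at an unadjusted p under 0.05 in each. In the Sp3-/- line 2 passed in ESC (Kdr and Cd34, lower, 11.3%), 2 in Flk1+ cells (Tek and Cd34, higher, 12.6%), 0 by limma in HE1 and HE2 (10.9% and 13.8%, with 1 and 2 genes at an unadjusted p under 0.05) and 1 in progenitors (Tek, higher, 8.65%). Kit passed in none of these 10 comparisons and Itga2b in none. Both mutants were set against the same WT samples.

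**Figure D2:**
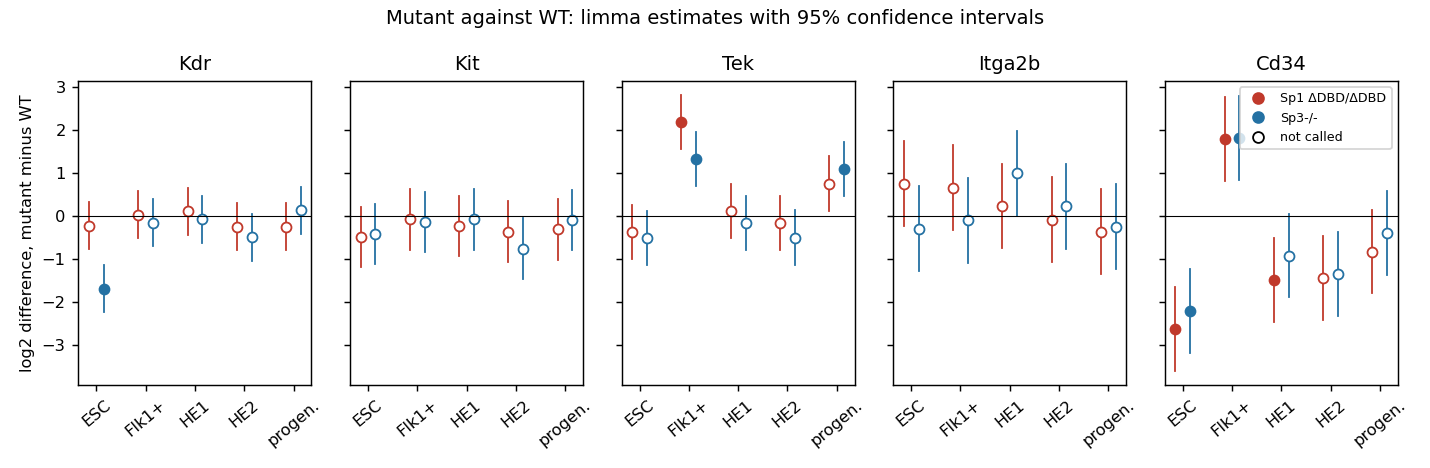
Log2 differences of the 5 genes, mutant minus WT, with 95% confidence intervals from limma by population; filled points passed an adjusted p of 0.05. Tek is higher by 2.19 and 1.33 in Flk1+ cells of the Sp1 and Sp3 mutants, and Cd34 is lower in ESC (-2.62 and -2.20) and higher in Flk1+ cells (1.80 and 1.82).

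The clearest difference was that of Tek in Flk1+ cells. Sp1 ΔDBD/ΔDBD cells held 4.14 and 8.94 FPKM and Sp3-/- cells 3.31 and 3.31, against 1.22 and 1.29 in WT, and neither mutant overlapped WT. The mean was 5.21-fold higher in Sp1 ΔDBD/ΔDBD (log2 difference 2.19 ± 0.30, adjusted p = 0.00015) and 2.64-fold higher in Sp3-/- (1.33 ± 0.30, adjusted p = 0.00724). Left out 1 at a time, the 4 samples gave 1.65 to 2.74 for Sp1 ΔDBD/ΔDBD, all called, and for Sp3-/- 1.30 to 1.37 with adjusted p between 0.0435 and 0.0633, lost without WT replicate 2 or Sp3-/- replicate 1. Fitted on Flk1+ samples alone the adjusted p was 0.0619 and 0.0896. The mutants themselves differed by -0.86 ± 0.30 (Sp3-/- minus Sp1 ΔDBD/ΔDBD, adjusted p = 0.0909), with an interval from -1.49 to -0.23.

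Cd34 differed in the same samples. It was at 0.723 and 2.14 FPKM in Sp1 ΔDBD/ΔDBD and at 1.22 and 1.34 in Sp3-/- Flk1+ cells, against 0.319 and 0.261 in WT. These log2 differences were 1.80 ± 0.46 (adjusted p = 0.0255) and 1.82 ± 0.46 (adjusted p = 0.0145). Without WT replicate 1, WT replicate 2 or Sp1 ΔDBD/ΔDBD replicate 2 the adjusted p for Sp1 ΔDBD/ΔDBD was 0.102, 0.197 and 0.34, and without any 1 of the 4 samples that for Sp3-/- was 0.0561 to 0.126. With a pseudocount of 1 the differences shrank to 0.85 and 0.82 and neither passed, and all these levels are at or below 2.14 FPKM. In this bulk RNA, more cells that carry a transcript and more transcript in each cell cannot be told apart.

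Other genes of the endothelial programme were higher in the same cells. Of the 7 endothelial markers 5 rose in Sp1 ΔDBD/ΔDBD Flk1+ cells (Cdh5, Pecam1, Esam, Emcn and Tie1) and 4 in Sp3-/- (Cdh5, Esam, Cldn5 and Tie1), where 5.54% and 12.6% of all genes passed, with median log2 differences of 1.80 and 1.30 over the list against 0.0218 and 0 over all genes. Their summed level was 14.4 and 14.7 FPKM in WT, 25.2 and 55.3 in Sp1 ΔDBD/ΔDBD and 26.5 and 24.7 in Sp3-/-. Tie1, an orphan receptor that partners Tie2, was at 0.664 and 0.912 FPKM in WT, 2.62 and 7.20 in Sp1 ΔDBD/ΔDBD and 3.51 and 2.66 in Sp3-/-. Cdh5, the cadherin of endothelial junctions, was at 1.62 and 2.09, 5.84 and 14.8, and 5.42 and 4.85 FPKM in the same order. Kdr itself did not pass (0.04 ± 0.26 and -0.15 ± 0.26), with 192 and 209 FPKM in WT, 165 and 257 in Sp1 ΔDBD/ΔDBD and 171 and 190 in Sp3-/-, in cells that were selected for its protein.

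Early mesoderm markers moved with these genes in Sp3-/- cells. Mesp1, Eomes and Tbx6, 3 of the 5 markers measured, rose there, where 12.6% of all genes passed. In Sp1 ΔDBD/ΔDBD 0 of 5 were called, where 5.54% of all genes passed. The summed level was 166.8 and 137.7 FPKM in WT, 285.7 and 187.9 in Sp1 ΔDBD/ΔDBD and 450.5 and 479.6 in Sp3-/-. Epithelial markers had a summed level of 292.7 and 309.4 FPKM in WT, 189.6 and 117.9 in Sp1 ΔDBD/ΔDBD and 146.0 and 128.8 in Sp3-/-. Of these 0 of 5 were called in either mutant, against the same shares of 5.54% and 12.6%. The summed level of the 6 pluripotent markers was 46.6 and 35.5 FPKM in WT, 55.8 and 23.8 in Sp1 ΔDBD/ΔDBD and 97.0 and 99.8 in Sp3-/-. The time in embryoid body culture also depended on the line. The part of these in the levels of Tek and Cd34 was not tested.

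Podxl, which encodes the CD34 family member podocalyxin, went the other way. It was at 122 and 144 FPKM in WT Flk1+ cells, 39.5 and 75.3 in Sp1 ΔDBD/ΔDBD and 24.3 and 27.7 in Sp3-/-. The log2 differences were -1.28 (adjusted p = 0.00293) and -2.35 (adjusted p = 1.51e-05). In progenitors it was instead higher in Sp3-/- (0.80, adjusted p = 0.0451), at 86.5 and 87.2 FPKM against 55.2 and 45.1.

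**Figure D3:**
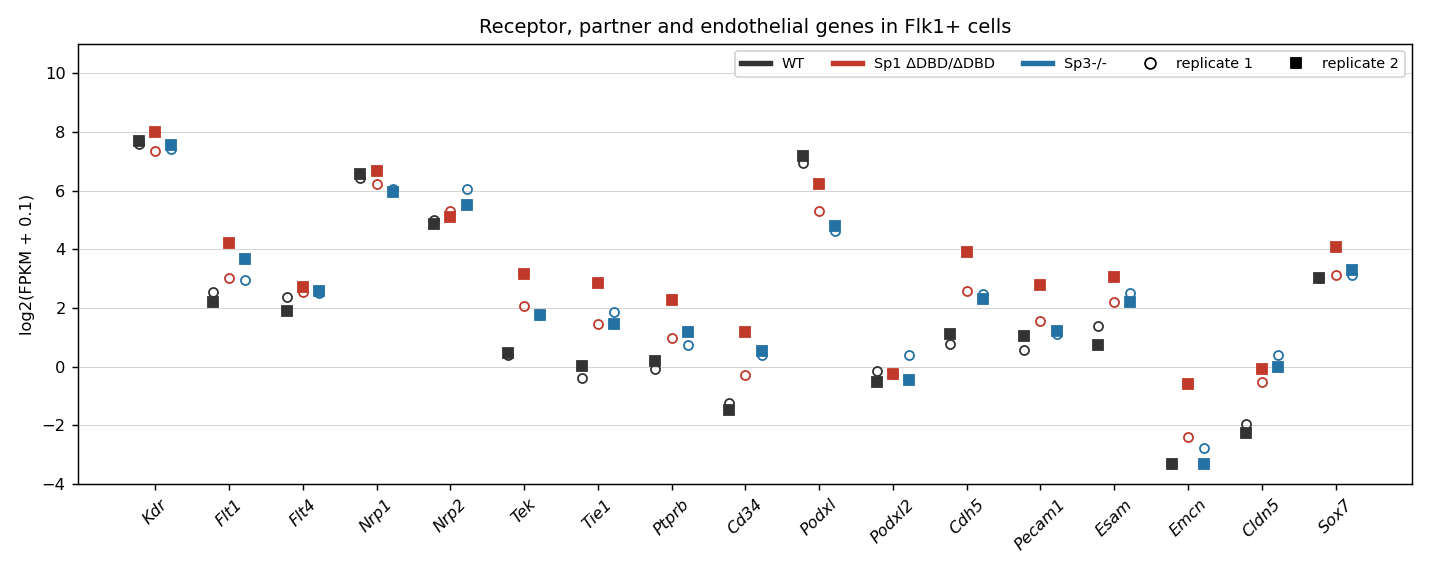
Log2(FPKM + 0.1) in each Flk1+ sample for the receptors, their relatives and the endothelial markers, with colours for genotypes and circles and squares for the 2 replicates. The samples of both mutants lie above WT for Tek, Tie1, Cd34 and Cdh5 and below WT for Podxl, while for Kdr the Sp1 ΔDBD/ΔDBD samples overlap WT and the Sp3-/- samples (171 and 190 FPKM) lie just below it (192 and 209).

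In HE1 and HE2 every mutant sample held less Cd34 RNA than the WT samples, a difference that passed the test in Sp1 ΔDBD/ΔDBD HE1. Sp1 ΔDBD/ΔDBD HE1 cells held 92.1 and 29.5 FPKM and Sp3-/- cells 82.4 and 72.6, against 139 and 153 in WT. In HE2 the values were 117 and 104, 111 and 123, and 248 and 353 FPKM, so that no mutant sample reached WT. The log2 difference was -1.48 ± 0.46 in Sp1 ΔDBD/ΔDBD HE1 (adjusted p = 0.0487). It did not pass in HE2 (-1.43 ± 0.46, adjusted p = 0.0585, and -1.34 ± 0.46, adjusted p = 0.0609, for Sp1 ΔDBD/ΔDBD and Sp3-/-) or in Sp3-/- HE1 (-0.91 ± 0.46, adjusted p = 0.221), and in progenitors it was -0.82 ± 0.46 and -0.39 ± 0.46.

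The HE1 call of Cd34 rested on the lower mutant sample. Without Sp1 ΔDBD/ΔDBD replicate 2 the difference was -0.66 with adjusted p = 0.572, and without WT replicate 1, the blast culture sample with the highest epithelial and muscle marker sums, it was -1.55 with adjusted p = 0.154. Without WT replicate 2 the adjusted p was 0.159. In HE2 the differences were -1.68 to -1.17 and -1.59 to -1.08 with 1 sample left out, none called, and both passed with a pseudocount of 1 (adjusted p = 0.0278 and 0.0308) or in a fit blocked by replicate number (adjusted p = 0.0478 and 0.0488).

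Cd34 thus lay below WT in ESC, above it in Flk1+ cells and below it in HE1. The ESC levels were 0.326 and 0.206 FPKM in Sp1 ΔDBD/ΔDBD and 0.381 and 0.387 in Sp3-/-, against 1.63 and 2.76 in WT, and the log2 differences were -2.62 ± 0.46 (adjusted p = 0.00163) and -2.20 ± 0.46 (adjusted p = 0.00493). With a pseudocount of 1 the adjusted p was 0.0501 and 0.0585, and without WT replicate 2 that for Sp3-/- was 0.058. The change from ESC to Flk1+ cells differed from that of WT by 4.42 ± 0.66 in Sp1 ΔDBD/ΔDBD (adjusted p = 0.0022) and by 4.02 ± 0.66 in Sp3-/- (adjusted p = 0.00385), and that from Flk1+ cells to HE1 by -3.28 ± 0.66 (adjusted p = 0.0143) and -2.74 ± 0.66 (adjusted p = 0.024). With any 1 of the 8 samples left out, the Cd34 difference from Flk1+ cells to HE1 was lost in Sp3-/- (adjusted p = 0.0566 to 0.104), and in Sp1 ΔDBD/ΔDBD it was lost without replicate 2 of WT Flk1+ cells or of Sp1 ΔDBD/ΔDBD Flk1+ cells or HE1 (adjusted p up to 0.0787). Tek was the other gene whose steps differed in both mutants, from ESC to Flk1+ cells, by 2.56 ± 0.42 (adjusted p = 0.00439) and 1.83 ± 0.42 (adjusted p = 0.034), the latter lost with any 1 of the 8 samples left out (adjusted p = 0.071 to 0.14), as was that of Kdr in Sp3-/- (adjusted p = 0.08 to 0.14). Of the 5 genes 2 passed for the step from ESC to Flk1+ cells in Sp1 ΔDBD/ΔDBD and 3 in Sp3-/-, against 1.74% and 1.48% of all genes, and 2 and 1 for the step from Flk1+ cells to HE1, against 1.53% and 4.02%. For the later steps 0 passed by limma, against 0.00688% and 0.0207% in Sp1 ΔDBD/ΔDBD and 0% and 0.0275% in Sp3-/-, with Tek at an unadjusted p under 0.05 from HE2 to progenitors in both mutants.

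Kdr in ESC was lower in Sp3-/- cells. Both samples, at 0.0316 and 0.0235 FPKM, were under the 0.322 and 0.297 of WT and the 0.292 and 0.215 of Sp1 ΔDBD/ΔDBD, and the log2 difference from WT was -1.68 ± 0.26 (adjusted p = 0.000531). Every one of these levels is below 1 FPKM and the difference was -0.35 with a pseudocount of 1 (adjusted p = 0.428). Against Sp1 ΔDBD/ΔDBD it was -1.46 ± 0.26 (adjusted p = 0.00163), the single receptor gene called between the mutants in ESC, where 9.67% of all genes passed. In Flk1+ cells, HE1, HE2 and progenitors 0 of 5 receptor genes passed between the mutants by limma, with 1 at an unadjusted p under 0.05 in Flk1+ cells and 0 in the rest, against 7.39%, 13.6%, 15.9% and 11.6% of all genes.

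In progenitors, selected as Tie2-, Tek RNA was higher in Sp3-/- cells. Its levels were 13.6 and 17.5 FPKM, against 8.67 and 5.95 in WT and 15.7 and 9.54 in Sp1 ΔDBD/ΔDBD. The log2 difference was 1.09 ± 0.30 in Sp3-/- (adjusted p = 0.0288) and 0.76 ± 0.30 in Sp1 ΔDBD/ΔDBD (adjusted p = 0.129). Without WT replicate 2, Sp3-/- replicate 1 or Sp3-/- replicate 2 the adjusted p for Sp3-/- was 0.21, 0.0741 and 0.192. The summed level of the endothelial markers was 143.0 and 158.4 FPKM in Sp3-/- progenitors and 121.1 and 157.3 in WT, so the groups overlapped there. That of the 7 erythroid markers was 1579 and 3527 FPKM in Sp3-/- progenitors against 13700 and 4556 in WT. Of the 7 markers 1 was called lower, where 8.65% of all genes passed. The part of erythroid cells in the level of Tek was not tested.

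Itga2b in Sp3-/- HE1 was at 83.3 and 81.8 FPKM, above the 34.8 and 49.2 of WT and the 42.8 and 55.7 of Sp1 ΔDBD/ΔDBD. The log2 difference from WT was 0.99 ± 0.47 (adjusted p = 0.188) and did not pass, except in a fit blocked by replicate number (adjusted p = 0.033), and with 1 sample left out it was 0.75 to 1.24. Fermt3, which encodes the kindlin that activates integrins in blood cells, rose in the same comparison (1.31, adjusted p = 0.0338), at 27.1 and 28.4 FPKM against 12.0 and 10.3. Early blood markers moved with these, with 3 of 7 (Gfi1b, Ikzf1 and Myb) higher, where 10.9% of all genes passed, and a summed level of 21.6 and 17.1 FPKM against 7.73 and 3.91 in WT, in cells gated as CD41-, and their part in the level of Itga2b was not tested.

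The ligands of these receptors were measured in the same cells. Kitl, the gene of stem cell factor, was lower in Sp3-/- Flk1+ cells (0.883 and 0.616 against 3.01 and 3.23 FPKM, adjusted p = 0.00644), HE1 (1.11 and 0.779 against 6.21 and 4.61, adjusted p = 0.00175) and HE2 (0.399 and 0.418 against 2.63 and 1.20, adjusted p = 0.00724). Angpt1, the ligand of Tie2, was lower in Sp3-/- HE1, HE2 and progenitors, where the log2 differences were -1.61, -2.20 and -1.84. In progenitors it was at 2.11 and 1.67 FPKM against 5.33 and 9.07 in WT. Neither Kitl nor Angpt1 passed in Sp1 ΔDBD/ΔDBD cells, which is not a test of a difference between the mutants. The summed level of the 5 fibroblast or feeder markers was 206.4 and 33.8 FPKM in WT HE1 and 18.1 and 16.7 in Sp3-/- HE1. That of the 6 muscle markers was 1697 and 356.8 FPKM in WT HE1 and 195.1 and 123.6 in Sp3-/- HE1. The part of such cells in the levels of Kitl and Angpt1 was not tested.

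Vegfb, a ligand of the related receptor Flt1, was higher in Sp3-/- HE1 (14.0 and 15.8 against 6.48 and 5.87 FPKM), HE2 (13.8 and 14.4 against 5.61 and 5.61) and progenitors (13.6 and 11.4 against 7.11 and 5.56). Adjusted p was 0.00172, 0.0011 and 0.0103. Vegfa, the main ligand of Flk1, passed in none of the 10 comparisons. Of the 8 VEGF ligands and receptors tested, 1 passed in each of Sp3-/- ESC (Flt4, lower), Flk1+ cells (Nrp2, higher), HE1, HE2 and progenitors (Vegfb, higher), against 11.3%, 12.6%, 10.9%, 13.8% and 8.65% of all genes. In Sp1 ΔDBD/ΔDBD cells 1 of the 8 was higher and 1 lower in ESC, and 1 was lower in HE2, against 6.06% and 9.67%.

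Some partners of the integrin and of KIT also passed the test. Itgav, which encodes another alpha chain that pairs with beta3, fell in Sp3-/- ESC, HE1, HE2 and progenitors, by 0.67, 1.15, 0.78 and 0.46 on the log2 scale. In HE1 it was at 14.8 and 14.3 FPKM against 33.5 and 31.4. Of the 6 integrin partners and ligands tested, 1 fell in each of these populations and 1 rose in HE1. The shares of all genes that passed were 11.3%, 10.9%, 13.8% and 8.65%. Ptpn6, the phosphatase SHP-1 that restrains KIT signalling, fell in HE2 of both mutants, by 1.43 in Sp1 ΔDBD/ΔDBD (adjusted p = 0.000427) and 1.10 in Sp3-/- (adjusted p = 0.00397). In Sp1 ΔDBD/ΔDBD HE2 1 of the 9 genes in the list of the KIT ligand and its partners passed, against 9.67% of all genes. Sh2b3, which encodes the KIT-binding adaptor Lnk, was at 10.7 and 10.5 FPKM in Sp3-/- HE2 against 19.0 and 29.7 in WT (adjusted p = 0.00419), and of the 9 genes of that list 1 rose and 4 fell in this comparison, which had a background of 13.8%.

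**Figure D4:**
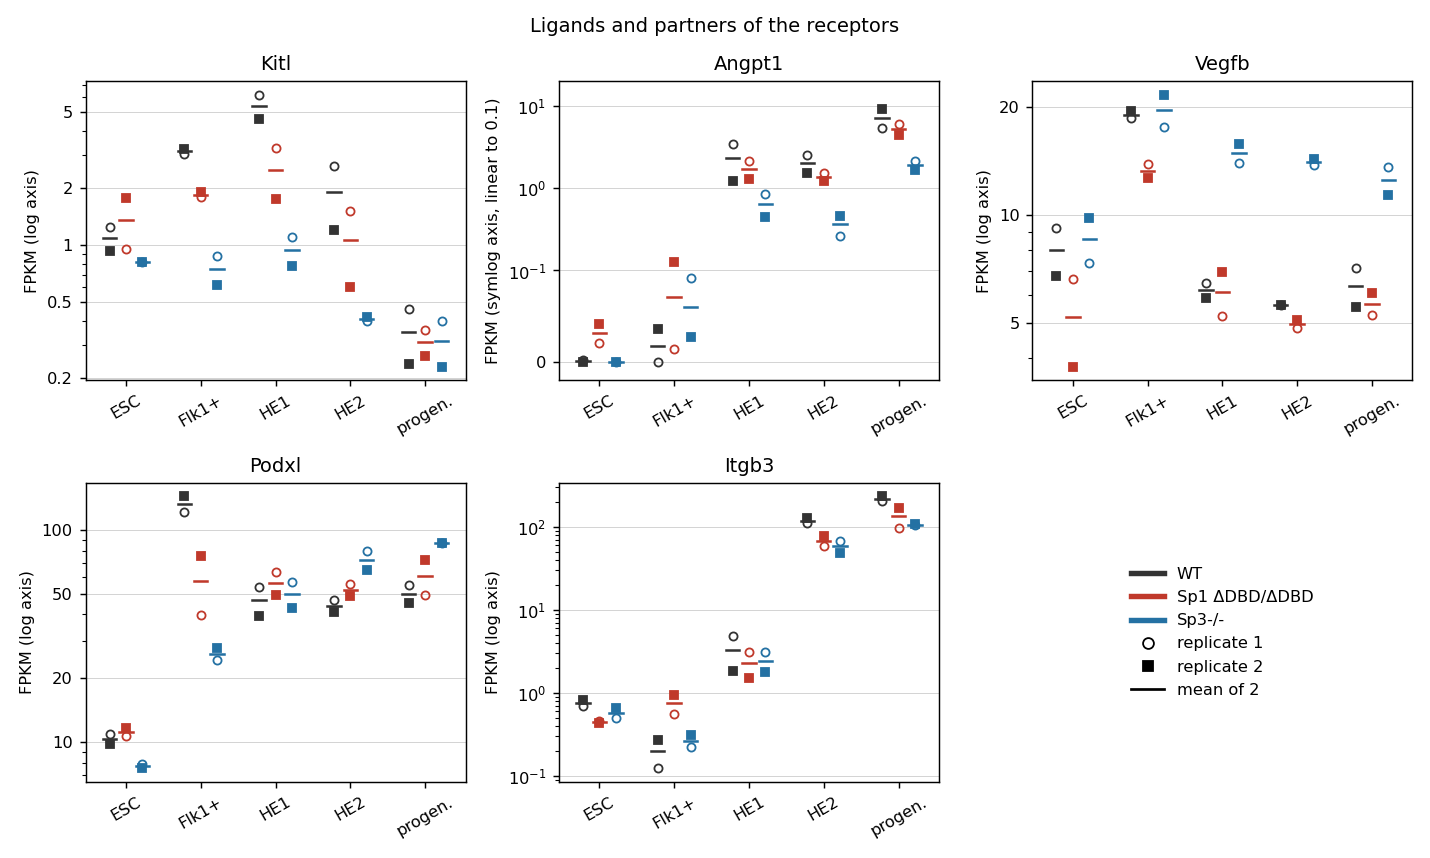
FPKM of 3 ligand genes (Kitl, Angpt1 and Vegfb), of Podxl and of Itgb3 by population and genotype on log axes (for Angpt1 the axis is linear below 0.1), with circles and squares for the 2 replicates and short lines for means. In HE1 Kitl and Angpt1 lie lower and Vegfb higher in the 2 Sp3-/- samples than in the 2 WT samples.

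The genes whose pattern over the 15 group means was most like that of each receptor were picked by Pearson correlation of log2(FPKM + 0.1) among 12016 genes. Kdr was most like Rspo3 (r = 0.992), Fndc4 and Slc35g2, and Kit most like Gclm (0.989), Scamp2 and Srxn1. Tek was most like Rapgef3 (0.977), Prkch and Plvap, which encodes a protein of endothelial diaphragms. Itga2b was most like St3gal1 (0.990), Lyl1, which encodes a blood transcription factor, and Ubash3b, and Cd34 most like Lyn (0.977), which encodes a Src family kinase, Gm16897 and Tln1. Between the receptors r ranged from 0.0809 for Kdr and Kit, neighbours on chromosome 5, to 0.923 for Itga2b and Cd34. The points share 5 populations and 3 lines and are not independent, so these values are a description.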

How the data were processed

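Total RNA was sequenced from 30 samples, 2 of each of 15 groups. The authors trimmed reads, aligned them to mm10 with HISAT2 (2.1.0), estimated FPKM per gene with StringTie (1.3.3), filtered the table to genes that exceeded 1 FPKM somewhere and applied quantile normalisation to it. The deposited FPKM values hold no counts, so the depth is unknown and no counting interval can be given. Quantile normalisation gives the samples 1 distribution, which a global change in RNA would not survive. The libraries were stranded.

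Values were analysed as log2(FPKM + 0.1) with limma (3.58.1, R 4.3.3), trend = TRUE, in 1 fit of 15 group means over 30 samples, on the 14525 genes above 1 FPKM in at least 1 sample. P-values are two-sided and Benjamini-Hochberg adjusted within each comparison over all genes, with a threshold of 0.05. Differences are on the log2(FPKM + 0.1) scale, which understates the change of low genes. The fit had 15 residual degrees of freedom. An exact permutation test of 2 against 2 samples cannot go below 0.333. Nothing shows that replicates were separate cultures beyond the study calling them biological, and same-numbered HE1, HE2 and progenitor samples deviated together in WT (correlation 0.371 to 0.433) and Sp1 ΔDBD/ΔDBD (0.414 to 0.618), while the fit treats all samples as independent. The script was tested on simulated data.

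The 5 genes and the lists were chosen with earlier results of these data known. Named genes were the 5 receptors, 3 most alike genes for each, called members of the ligand, receptor and partner lists, markers, Sp1 and Sp3. Alternatives were a pseudocount of 1, no filter, no trend, median-ratio scaling, samples of the compared populations only, a replicate block, leaving out each sample, and, chosen after seeing the data, a correction for GC content and length (99.1% of genes had a value). Gene positions are from GENCODE and promoters from RefSeq.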

Additional observations from a re-analysis of the deposited data

Results flagged for a closer look

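The tests of the step differences picked out 8 results, each a change between neighbouring populations that differed between a mutant and WT. From ESC to Flk1+ cells, Tek changed by 2.56 more on the log2 scale in Sp1 ΔDBD/ΔDBD than in WT and by 1.83 more in Sp3-/-, Cd34 by 4.42 and 4.02 more, and Kdr by 1.53 more in Sp3-/- (adjusted p = 0.0418). From Flk1+ cells to HE1, the difference was -2.07 for Tek (adjusted p = 0.0166) and -3.28 for Cd34 in Sp1 ΔDBD/ΔDBD, and -2.74 for Cd34 in Sp3-/-. The alternative settings gave -2.08 to -1.54 for this Tek difference, with adjusted p up to 0.0926 (limma). With 1 sample left out it was -2.61 to -1.52. The Kdr value rests on ESC levels below 1 FPKM, and with a pseudocount of 1 it was 0.20. The Cd34 values also rest on mean levels below 1 FPKM. These were 0.29 in WT Flk1+ cells, and 0.266 and 0.384 in Sp1 ΔDBD/ΔDBD and Sp3-/- ESC. From ESC to Flk1+ cells, the alternative settings gave Cd34 differences down to 2.16 in Sp1 ΔDBD/ΔDBD (limma, adjusted p up to 0.0439). In Sp3-/- the adjusted p for Cd34 reached 0.0594 under these settings. All 8 share the WT samples.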

How the results depend on the processing

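Counts are of the 5 receptor genes called. The calls of ligands, partners and markers were not followed under the alternatives. With a pseudocount of 1 they were 0 for Sp1 ΔDBD/ΔDBD against WT in ESC, 1 in Flk1+ cells and 1 in HE2, 0 for Sp3-/- against WT in ESC, 1 in Flk1+ cells and 1 in HE2, 0 for Sp3-/- against Sp1 ΔDBD/ΔDBD in ESC, and 0 for both Sp3-/- step differences named in the report (ESC to Flk1+ and Flk1+ to HE1). Fitted on the compared populations alone they were 0 for Sp1 ΔDBD/ΔDBD in ESC, Flk1+ cells and HE1 and 1 in HE2, 0 for Sp3-/- in Flk1+ cells and progenitors, 2 for the WT step from HE1 to HE2, 0 for the Sp1 ΔDBD/ΔDBD step difference from Flk1+ to HE1, and 1 and 0 for those of Sp3-/- from ESC and from Flk1+ cells, with fewer samples to estimate the spread. Without the intensity trend Sp1 ΔDBD/ΔDBD HE1 had 0, and with median-ratio scaling the Sp3-/- step difference from Flk1+ to HE1 had 2. Leaving out 1 sample, counts ranged from 1 to 2 in Sp1 ΔDBD/ΔDBD Flk1+ cells, 0 to 1 in HE1, 1 to 2 in Sp3-/- ESC, 0 to 1 in Flk1+ cells and 0 to 1 in progenitors, 1 to 2 and 0 to 1 between the mutants in ESC and Flk1+ cells, and 1 to 2 for the WT step from HE1 to HE2; for step differences they ranged from 0 to 2 (Sp1 ΔDBD/ΔDBD, Flk1+ to HE1) and were 1 (Sp3-/-, ESC to Flk1+) and 0 (Sp3-/-, Flk1+ to HE1) in each case. With the replicate block within a population the counts were 1 in Sp1 ΔDBD/ΔDBD HE2 (Cd34), 1 in Sp3-/- HE1 (Itga2b), 1 in Sp3-/- HE2 (Cd34) and 2 between the mutants in ESC; no other count of called receptors moved under the block. Same-numbered samples of different genotypes in 1 population correlated at 0.233 to 0.471 for WT and Sp1 ΔDBD/ΔDBD but at 0.00365 to 0.200 for WT and Sp3-/-, and the labels tie no number to a culture. No called value changed sign under the alternatives run, while some that did not pass the test did. Of 1585 single gene values, 1490 kept their outcome, 85 lost a call and 10 gained one. The 1490 include values that were called neither in the main fit nor in the alternative. The 85 are therefore a larger share of the values that had a call to lose than of all 1585. The cause of these changes was not tested. Median-ratio scaling moved the share of higher calls among all genes from 44.9% to 34% in Sp3-/- progenitors. Depth is unknown and differences below 1 FPKM depend on the pseudocount.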
